A study of Danio rerio with 5 samples.

Results

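Connexins are the membrane proteins of gap junctions. They assemble into hemichannels, and hemichannels of touching cells dock to form pores through which ions and small molecules pass directly from cell to cell. The cells of the early zebrafish embryo are coupled in this way while they are still dividing and beginning to differ from each other. Zebrafish connexin symbols carry the predicted mass of the protein, and the subfamily is given by the newer names of the genes.

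Transcripts of 5 connexin genes, cx43.4, cx44.2, cx35.4, cx30.3 and cx43, were followed in whole zebrafish (Danio rerio) embryos 4 hours after fertilisation. They were taken by symbol, and they are 5 of 33 genes with a connexin symbol and of 32520 genes in all. The set was chosen by earlier results in part, since cx35.4 had been seen low in both pools. Its difference between pools and controls is therefore a description given without a test, and the same was done for the other members in that contrast. All 5 passed the filter on low counts. cx35.4 did so through the controls, which alone had 10 or more of its counts.

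The study asked how many guides can be injected together when efficient ones are sought for RfxCas13d, an RNA-guided nuclease that cuts transcripts. Its 3 control libraries, replicates 1 to 3, are labelled as RfxCas13d controls, and the labels do not say what these embryos received. The 2 knockdown libraries came from embryos with RfxCas13d and pooled guides. One mix had 10 guides, the szrd1 guide with 9 more, and the larger mix had 25, that guide with 24 more. What those further guides target is not stated in the labels, nor are the strain, the number of embryos or whether the controls came from separate clutches. Reported p-values thus measure only the spread between these libraries, which may be technical.

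Gene counts ranged from 5283761 to 14179837 per library. Control replicates 1 and 2 were prepared in a larger reaction volume of the library kit than control replicate 3 and both pools, so that volume is partly confounded with the comparison. Unmapped reads were 44.0% in control replicate 3 and 13.1% to 21.0% elsewhere. The target szrd1 was at 221, 278 and 311 CPM in control replicates 1 to 3, and at 41.3 and 45.6 CPM in the pools of 10 and 25. CPM here is a count normalised for depth after scaling the libraries to each other. Markers of the enveloping layer, yolk syncytial layer, germ plasm, zygotic patterning genes and maternal transcripts were read in every library. The genes with no count in some library were apoa1b and 1 of 2 genes named afp4, both of the yolk syncytial list. Summed over each list, yolk syncytial markers were at 331 to 685 CPM in the controls and 290.4 to 299 CPM in the pools, and germ plasm markers at 963 to 1248 and 1412 to 1574 CPM. mxtx2, the largest part of the yolk syncytial sum, was at 189 to 455 and 151 to 156 CPM. mxtx1 too lay below every control in both pools, while hnf4a, gata3 and the other afp4 gene lay within their range. slc26a1 lay above every control in the pool of 10 and within the control range in the pool of 25. By TPM the yolk syncytial sum was 331 to 534 in the controls and 316 and 341 in the pools of 10 and 25. buc, the largest part of the germ plasm sum, was at 381 to 646 and 918 to 1039 CPM. tdrd7a too lay above every control in both pools, while dazl, nanos3 and dnd1 lay within. ddx4 lay above every control in the pool of 10 and within the control range in the pool of 25. Of all genes tested, 14.9% lay below every control in both pools and 14.6% above, by CPM. Maternal transcripts were at 3955 to 8793 CPM in the controls and 3755 to 3959 CPM in the pools.

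Per transcript length, most connexin RNA came from 2 genes of the gamma subfamily. In the deposited TPM, which allow for the length of the transcript, cx43.4 was at 155, 148 and 297 across control replicates 1 to 3, averaging 200.1 ± 84.1 TPM (SD, n = 3). cx43.4 (ENSDARG00000007099, gjc4b in RefSeq) is known in zebrafish for its part in left-right patterning. cx44.2 (ENSDARG00000034207, now gjc4a.1) was at 59.9, 63.0 and 55.8 TPM, averaging 59.6 ± 3.61 TPM (SD, n = 3). Both genes kept the first and second place in each of the 5 libraries, and their control values did not overlap.

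The other members were expressed at a few TPM. cx35.4 (ENSDARG00000042866), a beta connexin, was at 6.81, 4.23 and 10.5 TPM in the controls, or 7.17 ± 3.13 TPM (SD, n = 3). cx30.3 (ENSDARG00000042707, now gjb8), another beta connexin, was at 2.32, 7.26 and 2.67 TPM, or 4.08 ± 2.76 TPM (SD, n = 3). cx43 (ENSDARG00000041799, now gja1b), the alpha connexin that sets the length of fin ray segments in zebrafish, was at 1.26, 0.35 and 4.21 TPM, or 1.94 ± 2.02 TPM (SD, n = 3). The control ranges of cx35.4 and cx30.3 overlapped, as did those of cx30.3 and cx43, so the order of these neighbours is not beyond their spread. cx44.2 lay above cx35.4 in every library.

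**Figure D1:**
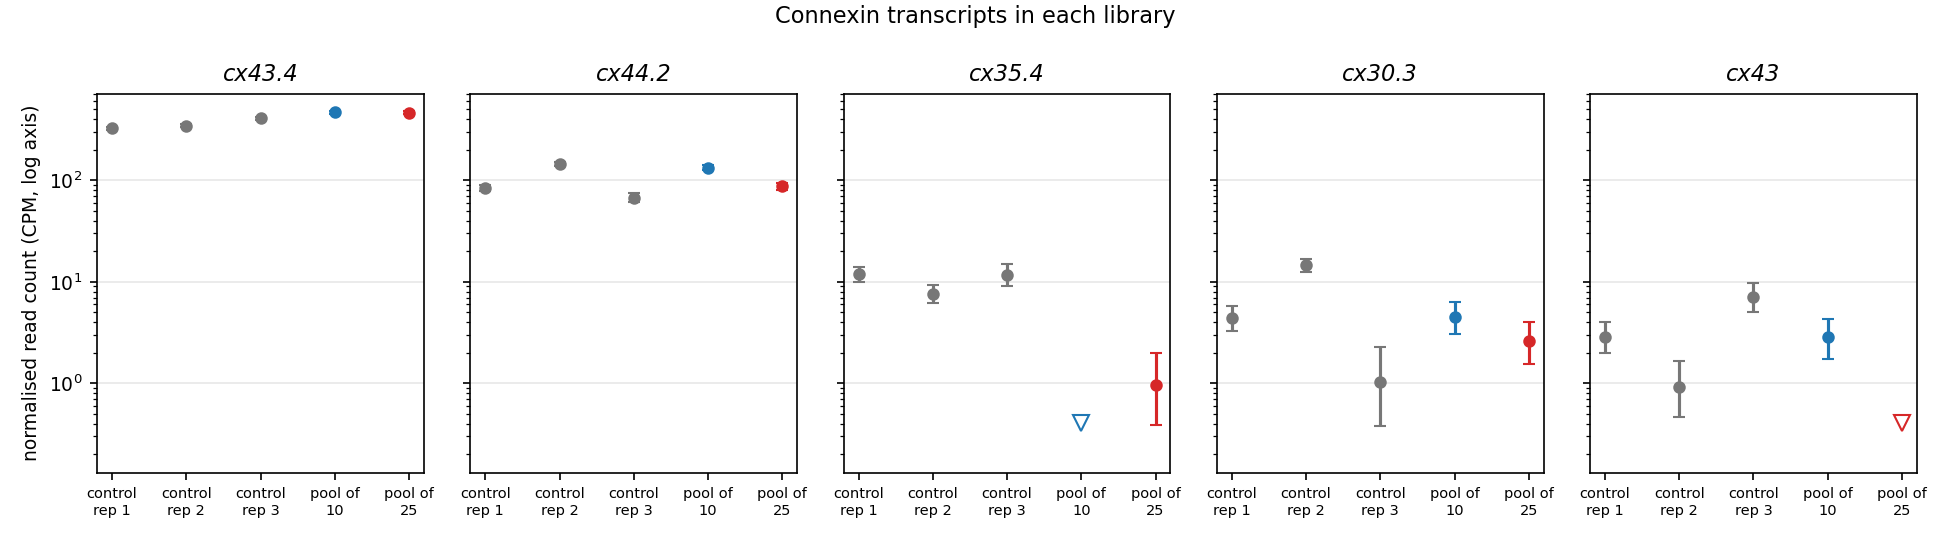
Normalised read count (CPM, log axis) of each connexin gene in the 3 control libraries (grey), the pool of 10 guides (blue) and the pool of 25 guides (red). Bars are exact Poisson 95% intervals, which cover counting error only, and open triangles mark libraries with 0 counts, drawn at the level of 3 counts. cx35.4 is at 7.65 to 11.9 CPM in the controls and has 0 counts in the pool of 10.

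Together the 33 connexin genes summed to 239, 238 and 380 TPM in control replicates 1 to 3, and to 452 and 450 TPM in the pools of 10 and 25. The sum was lowest in control replicates 1 and 2 and highest in the pools, and control replicate 3, of the same reaction volume as the pools, lay between. In TPM the median gene was also higher in the pools. On the count scale the connexin sum was 444, 531 and 504 CPM in control replicates 1 to 3 and 620 and 560 CPM in the pools. The pools were then 1.26 and 1.14 times the control mean, against 1.58 times for both by TPM, and control replicate 3 lay below control replicate 2. cx43.4 and cx44.2 made up 90.0%, 88.7% and 93.0% of the connexin TPM in the controls and 96.0% and 97.0% in the pools. cx35.4, cx30.3 and cx43 together gave 4.35%, 4.97% and 4.57% in the controls and 1.34% and 0.780% in the pools. Both pools lay outside the control range for these shares, and cx35.4, which was chosen for its low level there, is part of them. In whole embryos, fewer cells of a type and less RNA per cell cannot be told apart.

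**Figure D2:**
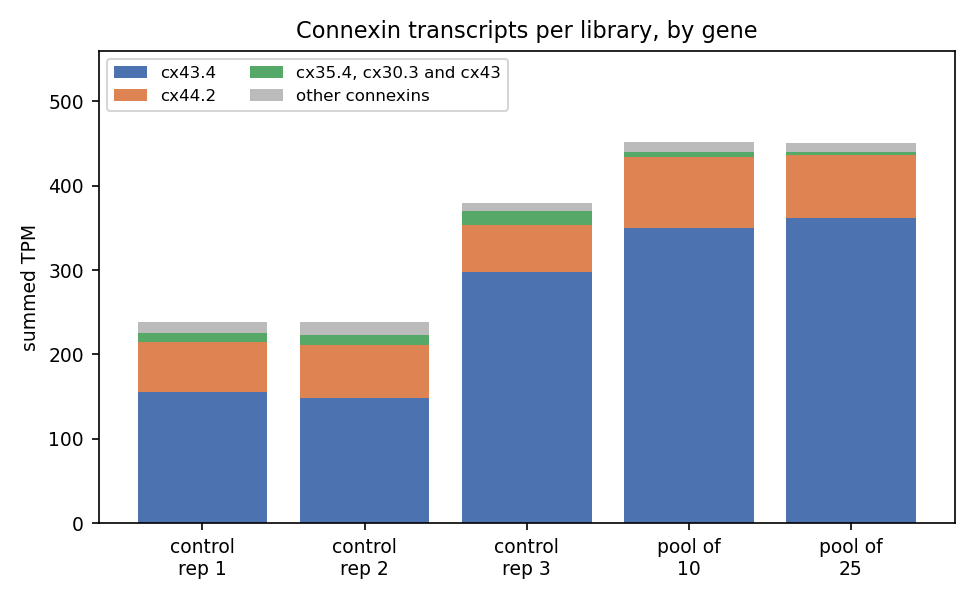
Summed deposited TPM of all genes with a connexin symbol in each library, with the parts of cx43.4, cx44.2, the 3 low members and the other connexins stacked. The total is 239 and 238 TPM in control replicates 1 and 2, 380 TPM in control replicate 3 and 452 and 450 TPM in the pools, and cx43.4 is the largest part in every library.

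cx35.4 was low in both pools. It had 140, 91 and 68 counts in control replicates 1 to 3, or 11.9, 7.65 and 11.8 CPM, averaging 10.4 ± 2.42 CPM (SD, n = 3). The pool of 10 had 0 counts, and the pool of 25 had 7 counts, or 0.958 CPM with an exact Poisson interval of 0.385 to 1.97 CPM. Neither pool overlapped the controls.

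At the level of the lowest control, control replicate 2, the depth of the pools would have given 56.6 counts of cx35.4 in the pool of 10, against 55.9 for the pool of 25. With 3 counts of the library as the floor, cx35.4 was at least 25.8-fold lower in the pool of 10 than the control mean, and at least 18.9-fold lower than control replicate 2 alone. In the pool of 25 its ratio to the control mean was 0.0917, with a counting interval of 0.0369 to 0.189. The ratio to control replicate 3, the control of the same reaction volume, was 0.0814 (counting interval 0.0327 to 0.168). Both intervals, like the fold bounds, hold the counting error of the pool alone and take the control level as exact. The 68 counts of control replicate 3 have a counting interval of their own, 9.14 to 14.9 CPM. The deposited TPM gave the same picture, with cx35.4 listed at 0 in the smaller pool and at 0.96 in the larger.

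A position below every control, whatever the size of the drop, is common among all genes here. How many genes fell as far as cx35.4 was not counted. Of the 16445 genes tested, 23.7% lay below every control in the pool of 10, 25.1% in the pool of 25 and 14.9% in both pools. In the same scale, 1, 2 and 1 of the 5 members did so. These were cx35.4 in both pools and cx43 in the pool of 25.

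The genes whose levels followed cx35.4 most closely over the 5 libraries were mlpha, nudt12 and abhd17c, out of 9831 genes searched. Likeness was the root-mean-square difference of log2 deviations from the gene's own mean, at 0.33 for mlpha, 0.64 for nudt12 and 0.66 for abhd17c. mlpha, which encodes a linker of melanosome transport, was at 9.44, 11.1 and 15.1 CPM in the controls, lacked counts in the pool of 10 and was at 1.64 CPM with 25 guides. nudt12, a gene for an enzyme that hydrolyses NADH, was at 11.8, 12.3 and 12.6 CPM in the controls and at 0.810 and 3.70 CPM in the pools of 10 and 25. abhd17c, which encodes an enzyme that removes palmitate from proteins, was at 104, 89.5 and 145 CPM in the controls and at 15.4 and 23.4 CPM in the pools. These genes were picked for following cx35.4 over the same 5 libraries, so their low levels in the pools come from the choice.

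**Figure D3:**
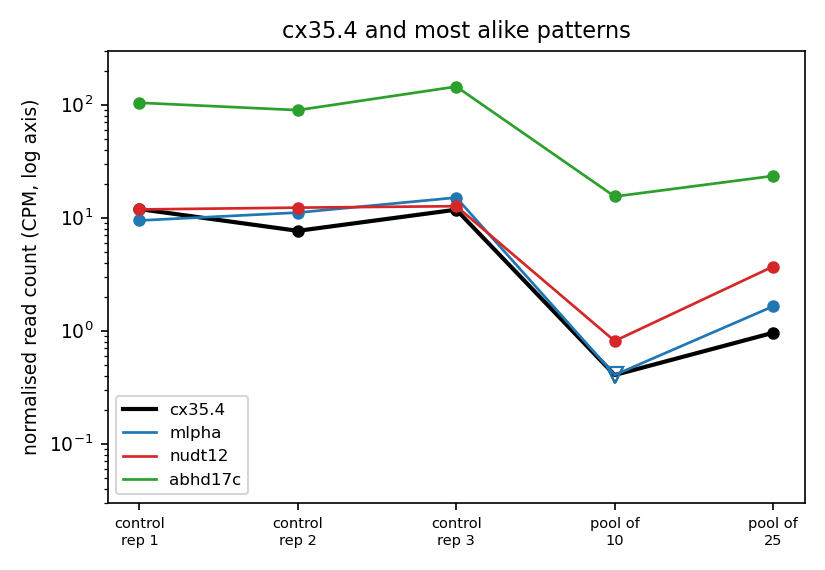
Normalised read count (CPM, log axis) of cx35.4 (black) in each library beside the 3 genes of most alike pattern. Open triangles mark libraries with 0 counts, drawn at the level of 3 counts, and lines only join the values of 1 gene. mlpha, nudt12 and abhd17c were picked for this likeness and lie below every control in both pools, as cx35.4 does.

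cx43.4 was somewhat higher in both pools than in the controls. It was at 324, 344 and 406 CPM in control replicates 1 to 3, or 358 ± 42.6 CPM (SD, n = 3), and at 468 and 462 CPM in the pools of 10 and 25. Both pools lay above every control, as did 23.6% of all genes tested in the pool of 10, 24.3% in the pool of 25 and 14.6% in both. cx43.4 was 1 of the 5 members in each of these counts. The log2 fold change was 0.39 (SE 0.547) with 10 guides and 0.37 (SE 0.548) with 25.

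Against the control of the same reaction volume the excess of cx43.4 was smaller. Its level in the pools of 10 and 25 was 1.15 and 1.14 times that in control replicate 3, against 1.40 and 1.38 times the mean of control replicates 1 and 2. Control replicate 3 itself was at 1.21 times that mean. In TPM the pools were at 1.75 and 1.81 times the control mean, but there the median gene also moved up, by a log2 change of 0.36 and 0.43 in the fits of log2(TPM + 1). Relative to the median gene, cx43.4 was higher by 0.50 and 0.49 on the log2 scale of the count fit and by 0.52 and 0.50 on that of TPM. With the reaction volume in the fit these values were 0.21 and 0.19.

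Among the patterns most like that of cx43.4 were those of tmem184ba and of spopla, which encodes an adaptor of a ubiquitin ligase. The root-mean-square log2 differences were 0.03 and 0.05. tmem184ba was at 115 CPM in control replicates 1 and 2 and at 141 CPM in control replicate 3, and at 161 and 165 CPM in the pools. As for cx43.4, its highest control was control replicate 3, which comes from the choice of genes by likeness.

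cx44.2 differed more among the controls than between controls and pools. It was at 83.5, 144 and 67.5 CPM in control replicates 1 to 3, or 98.2 ± 40.2 CPM (SD, n = 3), and at 133 and 87.6 CPM in the pools of 10 and 25. Both pools lay within the control range. The log2 fold change was 0.44 (SE 0.638) with 10 guides and -0.17 (SE 0.661) with 25, and without control replicate 2 these became 0.81 and 0.21.

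By TPM cx44.2 looked different, with 84.4 and 75.2 TPM in the pools of 10 and 25, above all 3 controls. This was so for 22.7% of all genes tested in both pools by TPM, and 7.48% lay below all controls. The corresponding counts of members were 2, cx43.4 and cx44.2, and 1, cx35.4. Relative to the median gene, the TPM change of cx44.2 was 0.14 with 10 guides and -0.09 with 25 on the log2 scale.

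The deposited counts and TPM of cx44.2 stood in a ratio that changed from library to library. TPM per CPM, divided by the median of that ratio over genes with a mean of at least 10 CPM in the library, was 1.25, 0.826 and 0.929 in control replicates 1 to 3 and 0.730 and 0.917 in the pools. For cx43.4 the same quantity stayed between 0.812 and 0.860. A further gamma connexin, gjc4a.2 in RefSeq (assembly GRCz12tu, used here for names and gene order), lies close to cx44.2 and is listed in the tables as si:dkey-91f15.1, a gene looked up after the values of cx44.2 were seen. It had 12, 14 and 8 counts in the controls and 16 and 4 counts in the pools. Whether reads were shared between the pair was not tested, and the level of cx44.2 is uncertain to that extent.

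**Figure D4:**
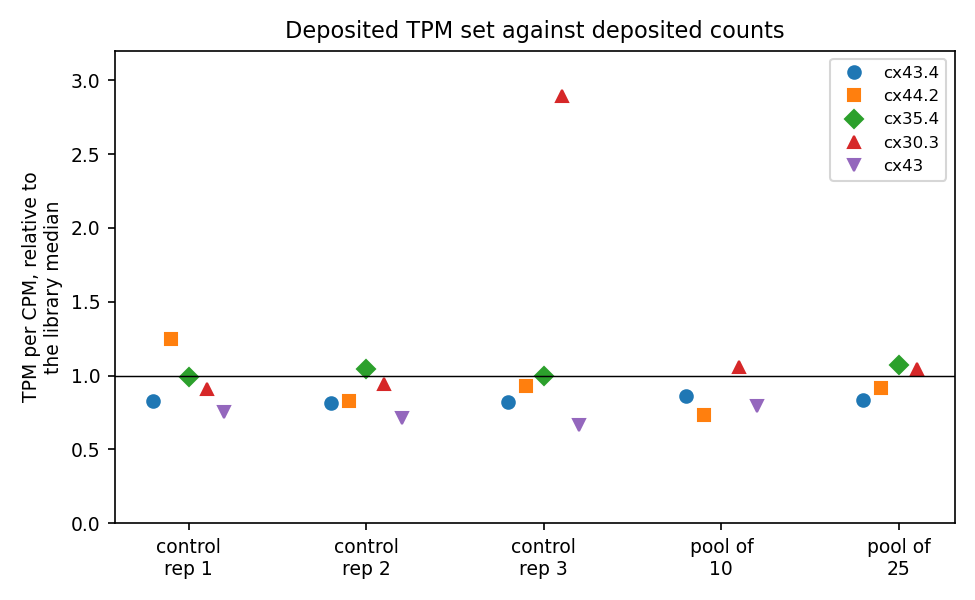
Deposited TPM per CPM of each connexin gene in each library, divided by the median of that ratio in the library. Libraries with 0 counts have no point. cx43.4 runs from 0.812 to 0.860, cx43 from 0.667 to 0.796 and cx44.2 from 0.730 to 1.25, and cx30.3 reaches 2.89 in control replicate 3.

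The genes most like cx44.2 over the 5 libraries were ier5l, wdfy2 and anxa5b, a gene for an annexin, with root-mean-square log2 differences of 0.06, 0.11 and 0.11. ier5l was at 49.5, 88.8 and 42.1 CPM in the controls and at 76.6 and 56.7 CPM in the pools. Control replicate 2 was the highest of the 3 controls for ier5l as for cx44.2, which comes from the choice of genes by likeness.

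In CPM cx30.3 ranged 14.0-fold among the controls, with its lowest value resting on 6 counts, and in TPM 3.13-fold, where cx43 ranged 12.0-fold. It had 52, 173 and 6 counts in control replicates 1 to 3, or 4.42, 14.5 and 1.04 CPM, averaging 6.67 ± 7.02 CPM (SD, n = 3). The pool of 10 had 33 counts, or 4.46 CPM, and the pool of 25 had 19 counts, or 2.60 CPM. Both pools lay within the control range.

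The direction for cx30.3 hung on which control was used. The log2 fold change was -0.59 (SE 1.26) with 10 guides and -1.37 (SE 1.34) with 25. Without control replicate 2 these became 0.67 and -0.10, and with the reaction volume in the fit, which sets the pools against control replicate 3, they were 2.09 and 1.31. In control replicate 3 the 6 counts stood beside a TPM of 2.67, close to the 2.32 TPM that went with 52 counts in control replicate 1. By TPM the pools were at 4.10 and 2.55, so by TPM the pool of 25 was below control replicate 3 and by counts above it.

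In CPM, the summed markers of zygotic patterning, of the enveloping layer and of the yolk syncytial layer were also highest in control replicate 2. Singly this held for 7 of 9, 6 of 10 and 6 of 8 genes, and the share of all genes highest in control replicate 2 was not counted. By TPM the zygotic patterning and yolk syncytial sums were again highest there. The enveloping layer sum was instead highest in control replicate 3, at 1718 TPM against 1624 TPM in control replicate 2. The summed level of 9 zygotic patterning genes was 434, 1002 and 511 CPM in control replicates 1 to 3 and 352 and 386 CPM in the pools. That of 10 enveloping layer genes, keratins and other genes of the outermost cells, was 755, 2816 and 1890 CPM in the controls and 1541 and 1485 CPM in the pools. No zygotic patterning or enveloping layer gene of the lists was at 0 in any library. That of the yolk syncytial genes was 406, 685 and 331 CPM in the controls and 299 and 290.4 CPM in the pools. In CPM, the zygotic patterning and enveloping layer sums were higher in control replicate 3 than in control replicate 1. The yolk syncytial sum and cx30.3 were lower. Whether the level of cx30.3 goes with that of these markers, and why, was not tested.

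Closest to cx30.3 in pattern were bola1, vegfaa, which encodes a vascular growth factor, and irf7, a transcription factor gene of the interferon response, with root-mean-square log2 differences of 0.12, 0.21 and 0.24. vegfaa was at 4.51, 15.1 and 1.04 CPM in the controls and at 2.97 and 2.33 CPM in the pools. All 3 genes had their highest level in control replicate 2 and their lowest in control replicate 3. They were picked for following cx30.3 over the same 5 libraries, so this likeness comes from the choice.

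**Figure D5:**
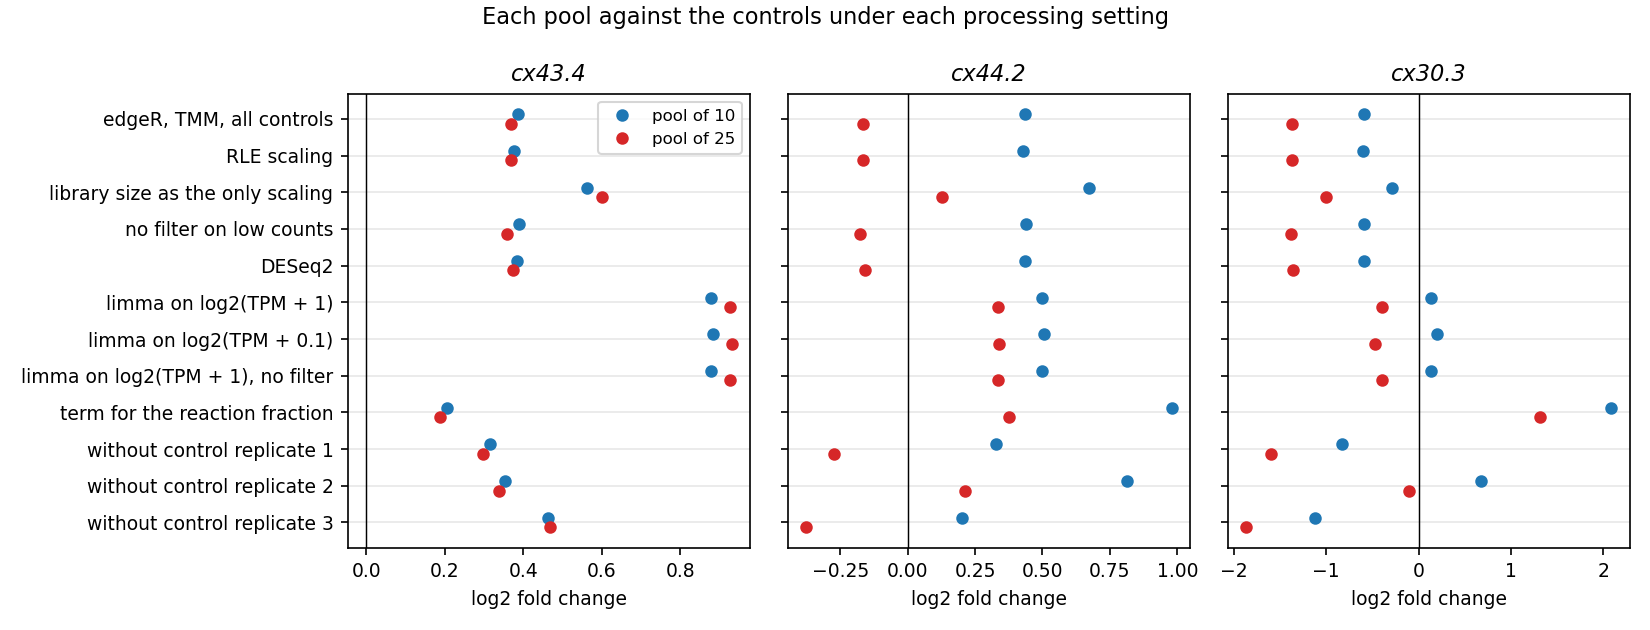
Log2 fold change of cx43.4, cx44.2 and cx30.3 in the pool of 10 (blue) and the pool of 25 (red) against the controls, for the edgeR fit and each of 11 alternative settings. The line marks a log2 fold change of 0, and in the TPM settings the median gene lay above it, at 0.33 to 0.53. cx43.4 stays above 0 throughout, from 0.19 to 0.93 over both pools. cx44.2 in the pool of 25 and cx30.3 in both pools fall on either side of 0. Relative to the median gene, which is not drawn, cx43.4 ran from 0.19 to 0.58 and the others named again fell on either side of 0.

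cx43 was scarce in all libraries. It had 34, 11 and 41 counts in control replicates 1 to 3, or 2.89, 0.924 and 7.10 CPM, averaging 3.64 ± 3.15 CPM (SD, n = 3). The pool of 10 had 21 counts, or 2.84 CPM, which is within the control range. The pool of 25 had 0 counts, which is below every control.

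For cx43 the bound in the pool of 25 depended on the controls. With the control levels taken as exact, cx43 was at least 8.86-fold lower there than the control mean. It was at least 4.65-fold lower than the mean without control replicate 3. Against control replicate 2 alone the figure was 2.25-fold, but that control rests on 11 counts. Its counting interval of 0.461 to 1.65 CPM overlapped that of the pool of 25, which reached 0.505 CPM, so no bound is drawn from it. At the level of control replicate 2 the pool of 25 would have given 6.75 counts. The genes most like cx43 were macroh2a2, a histone variant gene, pex14, a gene of peroxisomal import, and dacha, with root-mean-square log2 differences of 0.60, 0.63 and 0.64. pex14 was at 9.70, 11.3 and 62.0 CPM in the controls and at 18.5 and 4.79 CPM in the pools.

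For the 0 and 7 counts of cx35.4 no test is given, since it was chosen for these values. The interval of 0.385 to 1.97 CPM in the pool of 25 reaches below the level of 3 counts in the pool of 10, at 0.405 CPM. Such an overlap does not decide whether the pools differ in cx35.4, and no bound on that difference is drawn. None of the other 4 members differed between the pools beyond the threshold. cx43 had 0 counts in the pool of 25 and was at 2.84 CPM in the pool of 10, with a counting interval of 1.76 to 4.34 CPM (unadjusted p = 0.0219, edgeR adjusted p = 1).

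For the members with counts in both pools, the change from the pool of 10 to the pool of 25 was small against its error. It was -0.02 (SE 0.685) for cx43.4, with a 95% interval that allows ratios from 0.346 to 2.82. It was -0.60 (SE 0.804) for cx44.2, with ratios from 0.192 to 2.26, and -0.77 (SE 1.53) for cx30.3, with ratios from 0.0557 to 6.14. The edgeR adjusted p was 1 for each. Across all genes edgeR called 0% in this comparison, while an unadjusted p under 0.05 was reached by 55 genes that were lower and 75 that were higher, and DESeq2 called 0.

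Against the controls, edgeR likewise called 0% of the 16445 genes with 10 guides, 0% with 25 and 0% in both pools together. An unadjusted p under 0.05 was reached by 296 lower and 234 higher genes with 10 guides, by 302 and 200 with 25, and by 1096 and 653 in both pools. DESeq2 called 7 lower and 3 higher, 8 and 3, and 64 and 40 in the same order. Without control replicate 3, edgeR called 4210 genes for both pools together, 2180 of them lower. In that fit every control was of the larger reaction volume and both pools of the smaller. Volume and pool cannot be told apart there. With all controls, the target szrd1 was itself not called for both pools together (log2 fold change -2.63, SE 0.397, edgeR adjusted p = 0.232). A gene that was not called may therefore still differ.

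Of the other 28 connexin genes, 5 passed the filter, and 12 of the 33 had no count in any library. Connexin genes with at least 1 count numbered 14, 19 and 12 in control replicates 1 to 3 and 11 in each pool. cx23 (gje1a) and cx30.9 (gjb9b) were the other connexins with a mean of at least 1 TPM. cx23 was at 9.78, 4.54 and 4.67 CPM in the controls and at 7.56 and 3.97 CPM in the pools, with the pool of 10 inside the control range and the pool of 25 just below it. cx30.9 was at 3.66, 4.201 and 0.865 CPM in the controls and at 0.810 and 0.958 CPM in the pools.

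For cx30.9, control replicate 3 was as low as the pools. The remaining tested genes with a connexin symbol were gja8a, cx52.9 and cx28.9, each at most 2.27 CPM in any library. Of the 5 genes 0 passed in either direction in any comparison (smallest edgeR adjusted p = 0.486 for both pools against the controls). Most of them passed the filter through a few libraries where they were high, so no direction is read from them.

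A list of 9 further genes was also read. It held 5 scaffold genes of the ZO family, whose proteins bind connexin tails at the cell border, and 4 pannexins. Pannexins form channels in a single membrane. Of these 9 genes 7 were tested and 0 passed (smallest edgeR adjusted p = 0.464, for both pools against the controls). Their median log2 fold change was 0.17, against -0.08 over all genes tested. It spans both kinds of gene, with tjp1a, tjp1b, tjp2a and tjp3 above 0 and tjp2b, panx1a and panx3 below. tjp2a was at 38.7, 31.2 and 114 CPM in control replicates 1 to 3 and at 113 and 127 CPM in the pools. tjp1a was at 27.1, 28.8 and 59.5 CPM and at 62.0 and 54.6 CPM, and tjp3 was at 80.3, 87.9 and 151 CPM and at 111 and 128 CPM.

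In tjp2a and tjp1a, control replicate 3 was close to the pools and far from the other controls, and in tjp3 the pools lay between control replicate 3 and the others. tjp2b had the opposite order, at 146, 124 and 73.0 CPM in the controls and 92.2 and 103 CPM in the pools. tjp1b was at 20.5, 13.02 and 26.5 CPM and at 25.3 and 34.2 CPM. Among the pannexins, panx3 was at 8.17, 11.3 and 16.3 CPM in the controls and at 3.11 and 2.87 CPM in the pools, below every control (log2 fold change -1.99, SE 0.586, edgeR adjusted p = 0.464).

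panx3 did not pass, and its highest control was control replicate 3, of the same volume as the pools. panx1a was at 27.1, 28.7 and 19.6 CPM in the controls and 21.9 and 17.1 CPM in the pools. panx1b and panx2 had at most 4 counts in any library and were not tested.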

How the data were processed

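RNA of whole embryos was sequenced in 5 libraries. The authors deposited whole-number gene counts and a second table per gene, read as TPM from its values, since the file headers give no unit. The submitters' processing notes list bcl2fastq 2.20 and danRer11. Which aligner and counting program were used, and whether strand was counted, is not given in the sources used here. Entries that name no gene held 26.7% to 53.8% of reads and were left out.

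The deposited counts were scaled by TMM to give CPM (edgeR 4.0.16 under R 4.3.3). Genes passing its expression filter (minimum count 10) were tested by quasi-likelihood, with Benjamini-Hochberg adjusted p-values over all of them and a threshold of 0.05. The 3-group fit left 2 residual degrees of freedom, so each single pool was assumed to vary like the controls. The spread of each gene was moderated by that of all genes tested. Each edgeR SE was derived from the fold change and its F statistic. Both pools together were fitted as 1 group. The code was tested on simulated data. Alternatives were DESeq2 1.42.0, limma 3.58.1 on log2(TPM + 1) or log2(TPM + 0.1), other scalings and filters, a volume term, and leaving out each control. Counting intervals are exact Poisson, and the floor is 3 counts per library. Both cover counting error only, and in ratios and fold bounds the control level is taken as exact.

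The named genes were the members, szrd1, connexins with a mean of at least 1 TPM, and a fixed list of ZO and pannexin genes. For each member, they included the 3 most alike genes with a mean of at least 5 CPM and no clone name (log2 of CPM + 0.5). Connexin symbols were matched without regard to case, which added 1 gene, and 30 of 33 were matched to RefSeq names. gjc4a.2, listed under a clone name, passed the filter but is not among the 33. The genes gjc4a.2, gja8a, cx52.9, cx28.9 and all marker genes named singly were named after their values were seen. Members and lists were chosen with earlier results of these data known. Some results under this rule are not reported here. No sequences were used here.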

Additional observations from a re-analysis of the deposited data

How the results depend on the processing

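Results rest on 1 library per pool and 3 controls of unequal depth and volume. No paired analysis was possible because the pools carry no replicate number. Genes called against the controls, 0 in the edgeR fit, were 19 in the pool of 10, 10 in the pool of 25 and 137 in both pools with no filter on low counts, and 10, 11 and 104 with DESeq2. In both pools limma called 2 genes on log2(TPM + 1) and 1 on log2(TPM + 0.1), and the volume term gave 10. Leaving out each control gave 0 to 7 in the pool of 10, 0 to 5 in the pool of 25 and 0 to 4210 in both pools. The 4210 arose without control replicate 3, where reaction volume is fully confounded with the comparison. The 7 and the 5 arose without control replicate 1, and leaving out control replicate 2 gave 1 in each single pool. For these the cause was not tested. The count in the comparison between pools was 0 throughout. Of 220 recomputed member fold changes, 185 moved by less than the control spread or kept sign and call between the pools, 30 moved further and 5 changed sign between the pools. These were cx43.4, at 0.0364 with library size alone, 0.0486, 0.0487 and 0.0486 in the 3 TPM fits, and -0.0185 to 0.0051 when leaving out each control, the last without control replicate 3, against -0.0188. Against the controls, changes of sign were not counted apart. For cx43 in the pool of 10 the sign was kept in 7 of 11 settings, with values from -1.32 to 0.58. It was kept in 6 of 11 for cx30.3 in the pool of 10 and in 5 of 11 for cx44.2 in the pool of 25. For cx30.3 it was kept in 10 in the pool of 25 and in 9 in both pools, and for cx44.2 in 10 in both pools. Elsewhere all 11 kept it. The order of the 5 members by control mean was the same in CPM as in TPM. The floor of 3 counts corresponded to 0.252 to 0.519 CPM.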
